A study of Mus musculus with 6 samples.

Results

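The genes of purine and pyrimidine synthesis and salvage were followed in GC-2spd cells, a mouse spermatocyte-derived line of BALB/c background, with and without fine particulate matter (PM2.5). The list was set by name, from what the enzymes do, and held 39 of the 54886 genes in the deposited tables. All 39 symbols matched 1 gene identifier. The control group was 3 libraries of untreated cells in normal culture medium, and the methods of the study also name PBS, the vehicle of the particles. The PM2.5 group was 3 libraries of cells exposed to 100 μg/mL for 48 h to an urban reference particulate (SRM 1648a), suspended in PBS. The line was immortalised with SV40 large T antigen and a temperature-sensitive p53, as background, so both groups carry these and all libraries come from 1 line. The methods speak of 3 experiments for quantitative data in general, but neither they nor the labels say whether the 3 libraries of a group came from separate cultures, so the p-values measure only the spread between these samples.

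Cells make purine nucleotides de novo by building the ring on activated ribose phosphate, and pyrimidine nucleotides by closing the ring first and adding the ribose phosphate afterwards. Both routes consume amino acids, bicarbonate and ATP, and the purine route also uses folate-bound one-carbon units. Salvage enzymes reattach free bases or phosphorylate nucleosides at lower cost, ribonucleotide reductase turns ribonucleotides into the deoxy forms that replication needs, and breakdown of purines ends in uric acid. The study connects the exposure with energy metabolism and nucleotide supply, and the comparison made here asks at which of these steps the transcript levels differed.

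Levels were read as FPKM, fragments per kilobase of gene length scaled for sequencing depth. A comparison between libraries rests on that scaling, and other scalings moved the medians of the 6-library fit, as given at the end. Fold changes are on the scale of log2(FPKM + 1), which understates the change of low genes, with control subtracted from PM2.5. A gene was called at an adjusted p under 0.05 in limma, a linear model fitted over all genes that averaged 1 FPKM or more. Of the 39 members, 36 passed this filter, and whole reads recovered from the FPKM put them between 124 and 10867 reads in a library.

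The libraries did not all resemble their group. Control replicate 2 had 14.5% of its recovered reads on mitochondrial genes, against 1.65% to 1.95% in the other libraries, and its log2(FPKM + 1) values correlated with control replicate 1 across genes at r = 0.742, against 0.992 for control replicate 3. Over all genes tested, 41.1% lay more than 1 log2 unit away from the mean of control replicates 1 and 3 in this library, and 12 of the 36 members (33.3%) did so. PM2.5 replicate 3 correlated with PM2.5 replicate 1 at 0.95, below the 0.972 it had with control replicate 1. Recovered depth ran from 16209352 to 18003201 reads. Of 12 spermatocyte markers 1 (Hspa2) averaged 1 FPKM or more, and Spo11, Dazl, Pgk2 and Piwil1 had no read, while 6 of 11 peritubular or fibroblast markers passed, with a summed FPKM of 689 to 769 in control and 393 to 654 in PM2.5 libraries. The markers in that sum did not share a direction. Col1a2 had 199 to 202 FPKM in control and 115 to 135 in PM2.5 libraries, Col1a1 was low in PM2.5 replicate 3 alone (193, against 412 to 452 elsewhere), and Acta2 had 41.6, 88.3 and 43.3 in control and 58.1 to 59.5 in PM2.5 libraries. Of 7 Sertoli markers 1 (Gata4, 11.1 to 22.3 FPKM) averaged 1 FPKM or more, and of 6 Leydig markers 1 (Star, 1.58 to 2.49 FPKM). The single immune marker above that level was Cd68, and the summed immune markers reached 15.9 in control replicate 2. The part of these differences in the results below was not tested, and in bulk RNA fewer cells of a type and less RNA per cell cannot be told apart. Calls and medians are therefore given for the 6 libraries and again without control replicate 2. Some single genes have no fold change in the text, or only the one without that library, which need not hold for all 6.

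With all 6 libraries, no member passed the adjusted threshold in limma, where 0.0926% of all 11884 genes tested did. In voom on the recovered reads no gene of the table passed, with 403 of 11740 at an unadjusted p under 0.05. At an unadjusted limma p under 0.05 there were 3 members, Xdh, Dctd and Umps, all higher in PM2.5, beside 3.8% of all genes in both directions. Every PM2.5 library lay above every control library for 8 members (Gart, Adsl, Atic, Umps, Ctps, Rrm2, Dctd and Xdh), beside 8.35% of all genes, and below for 3 (Tyms, Dut and Nt5c2), beside 6.85%. Without control replicate 2, Xdh alone was called, beside 1.03% of 11597 genes. In that fit 9 members had an unadjusted p under 0.05 and were higher (Atic, Umps, Ctps, Rrm2, Dctd, Aprt, Ada, Xdh and Ampd3), beside 8.32% of all genes, and 0 were lower, beside 7.67%.

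**Figure D1:**
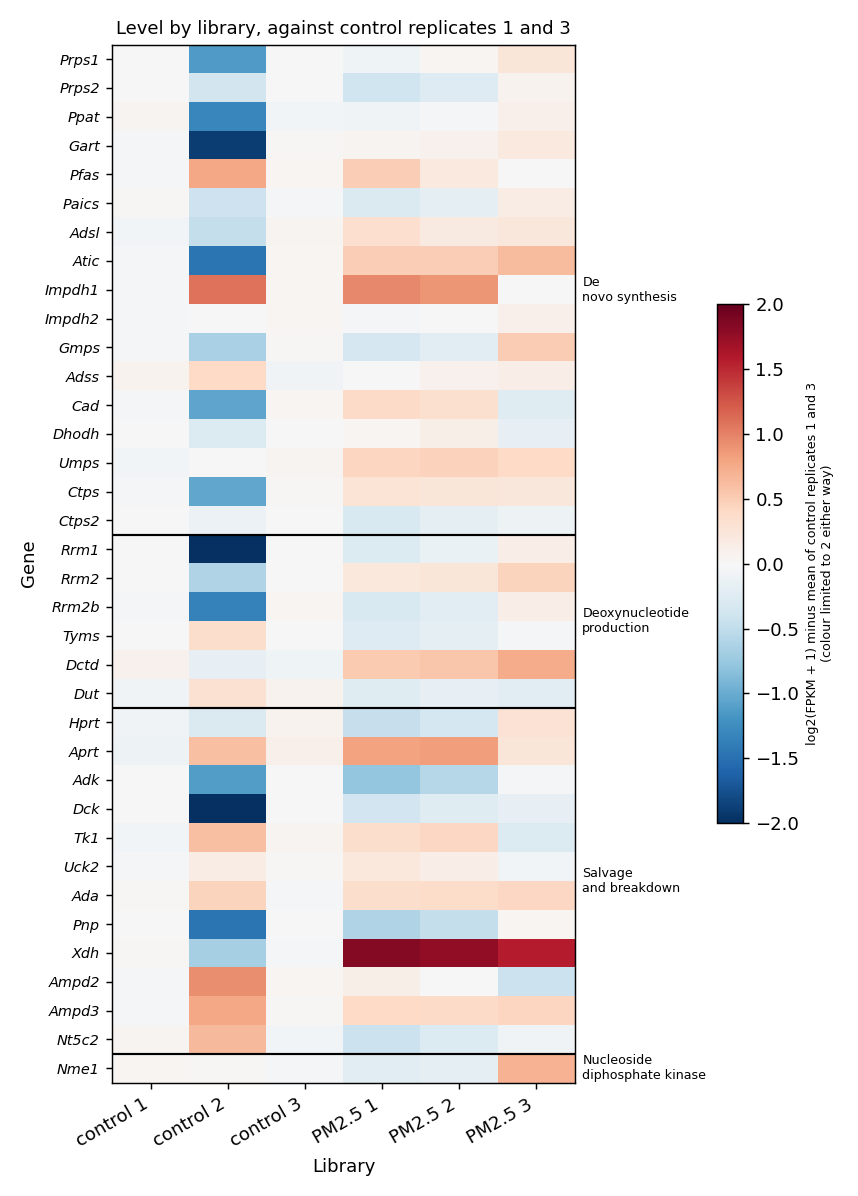
Each cell of the map gives log2(FPKM + 1) of 1 of the 36 tested members in 1 library, minus the mean of control replicates 1 and 3 for that gene, with genes as rows grouped by role and libraries as columns. Colour is limited to 2 either way, and control replicate 2, whose values run from -3.32 (Dck) to 1.09 (Impdh1), is the most strongly coloured column. Xdh is dark red in all 3 PM2.5 libraries.

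Xdh, which encodes xanthine dehydrogenase, the enzyme that oxidises hypoxanthine and xanthine to uric acid, showed the largest difference of any member. Its FPKM was 4.45, 2.39 and 4.28 in control replicates 1, 2 and 3 and 18.1, 17.3 and 14.9 in PM2.5 replicates 1, 2 and 3. Every PM2.5 library lay far above every control library, and the lowest level was that of control replicate 2. The means were 3.71 ± 1.14 and 16.8 ± 1.70 (SD, n = 3), a 4.53-fold difference in mean FPKM. With all 6 libraries the log2 fold change was 1.95 (SE 0.25) at an adjusted p of 0.121, so the call was not made. Without control replicate 2 it was 1.73 (SE 0.12, 95% interval 1.43 to 2.02) at an adjusted p of 0.00970, a 3.85-fold difference in mean FPKM. When 1 further library was left out of the 5, the log2 fold change stayed between 1.67 and 1.81, while the adjusted p passed the threshold without PM2.5 replicate 3 (0.000165) and missed it without control replicate 1 (0.2385), control replicate 3 (0.180), PM2.5 replicate 1 (0.0600) or PM2.5 replicate 2 (0.101). In these last 4 fits no gene of the whole table was called. The gene (ENSMUSG00000024066, chr17:73883895-73950196, minus strand, GRCm38) had 285 to 757 reads in control and 2469 to 2975 in PM2.5 libraries. Other genes share 14.4% of its annotated 31-base sequences.

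Among the enzymes of de novo purine synthesis none was called in either fit, and Atic, Adsl and Gart were the members whose groups did not overlap. Atic encodes the bifunctional enzyme that adds the last one-carbon unit and closes the ring to give inosine monophosphate (IMP). It had 15.9, 5.34 and 17.0 FPKM in control and 23.5, 23.6 and 26.0 in PM2.5 libraries. The groups did not overlap, and the 3 PM2.5 libraries lay close together above 2 near-equal control libraries and 1 far lower one. The log2 fold change was 1.03 (SE 0.43, adjusted p = 0.875) with all 6 libraries and 0.54 (SE 0.10, adjusted p = 0.0940) without control replicate 2, and was not called in either fit. Adsl encodes adenylosuccinate lyase, which acts once in the ring pathway and once more on the way to AMP. It had 8.82, 6.31 and 9.62 FPKM in control and 11.8, 10.5 and 11.0 in PM2.5 libraries, again without overlap. Its log2 fold change was 0.41 (SE 0.21) with and 0.25 (SE 0.10) without control replicate 2. Gart, a trifunctional enzyme of the early ring steps, had 16.4, 3.70 and 16.8 FPKM in control and 17.3, 17.7 and 19.2 in PM2.5 libraries. These groups are separate, but control replicates 1 and 3 lie just under the PM2.5 libraries, and the log2 fold change of 0.75 (SE 0.54) with all libraries became 0.12 (SE 0.09) without control replicate 2. A gene on the other strand, Gm15964, overlaps 19.7% of the exon bases of Gart, and without a stated strand setting its reads cannot be told apart.

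The entry and branch points of the purine route showed smaller or uneven differences. Prps1, Prps2 and Ppat, which make phosphoribosyl pyrophosphate and commit it to purines, had log2 fold changes of 0.07, -0.19 and 0.00 without control replicate 2, with 95% intervals of -0.25 to 0.38, -0.60 to 0.21 and -0.25 to 0.25. With all 6 libraries the log2 fold changes were 0.44, -0.07 and 0.44. Impdh1 and Impdh2 encode the paired forms of IMP dehydrogenase, the first step towards GMP. Impdh1 had 13.6, 30.9 and 14.3 FPKM in control and 28.2, 26.5 and 14.1 in PM2.5 libraries, so control replicate 2 resembled PM2.5 replicates 1 and 2, and PM2.5 replicate 3 resembled control replicates 1 and 3. Its log2 fold change was 0.25 (95% interval -0.77 to 1.28) with and 0.62 (-0.18 to 1.41) without control replicate 2. Impdh2 lay between 48.8 and 53.8 FPKM in all 6 libraries, the narrowest spread in the group. Of its 31-base sequences 43.7% are shared with other genes, mostly the pseudogene Impdh2-ps, so its level is uncertain. Pfas, Paics, Gmps and Adss, for the remaining steps, had log2 fold changes between -0.11 (Paics) and 0.23 (Pfas) without control replicate 2, and none was called. Paics and Ppat lie head to head on opposite strands of chromosome 5, with annotated first bases 271 bases apart and overlapping exons. Reads from the shared stretch could have been counted for either gene or left uncounted.

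In de novo pyrimidine synthesis no gene was called in either fit, and the groups did not overlap for Umps and Ctps. Umps, the bifunctional enzyme that turns orotate into uridine monophosphate, had 24.2, 25.2 and 26.1 FPKM in control and 34.3, 35.1 and 33.5 in PM2.5 libraries. Control replicate 2 did not stand apart for this gene. The means were 25.2 ± 0.936 and 34.3 ± 0.781 (SD, n = 3), and the log2 fold change was 0.43 in both fits (SE 0.17 with and 0.09 without control replicate 2), at adjusted p of 0.875 and 0.119. Ctps, cytidine triphosphate synthase, had 41.3, 19.9 and 42.3 FPKM in control and 50.7, 49.6 and 48.9 in PM2.5 libraries, with a log2 fold change of 0.59 (SE 0.33) that became 0.24 (SE 0.08, adjusted p = 0.268) without control replicate 2. Its paralog Ctps2 had 16.7 to 18.2 FPKM in control and 14.5 to 16.9 in PM2.5 libraries, and its log2 fold change without control replicate 2 was -0.20 (95% interval -0.45 to 0.06). Cad, which carries the opening activities of the route in 1 polypeptide, had 24.4, 11.5 and 25.6 FPKM in control and 33.0, 31.5 and 20.9 in PM2.5 libraries. Its PM2.5 replicate 3 lay below control replicates 1 and 3, opposite to the other PM2.5 libraries. Dhodh, the step that sits in the inner mitochondrial membrane, was low throughout, at 1.73 to 2.58 FPKM, with a log2 fold change of -0.01 (95% interval -0.31 to 0.30) without control replicate 2.

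**Figure D2:**
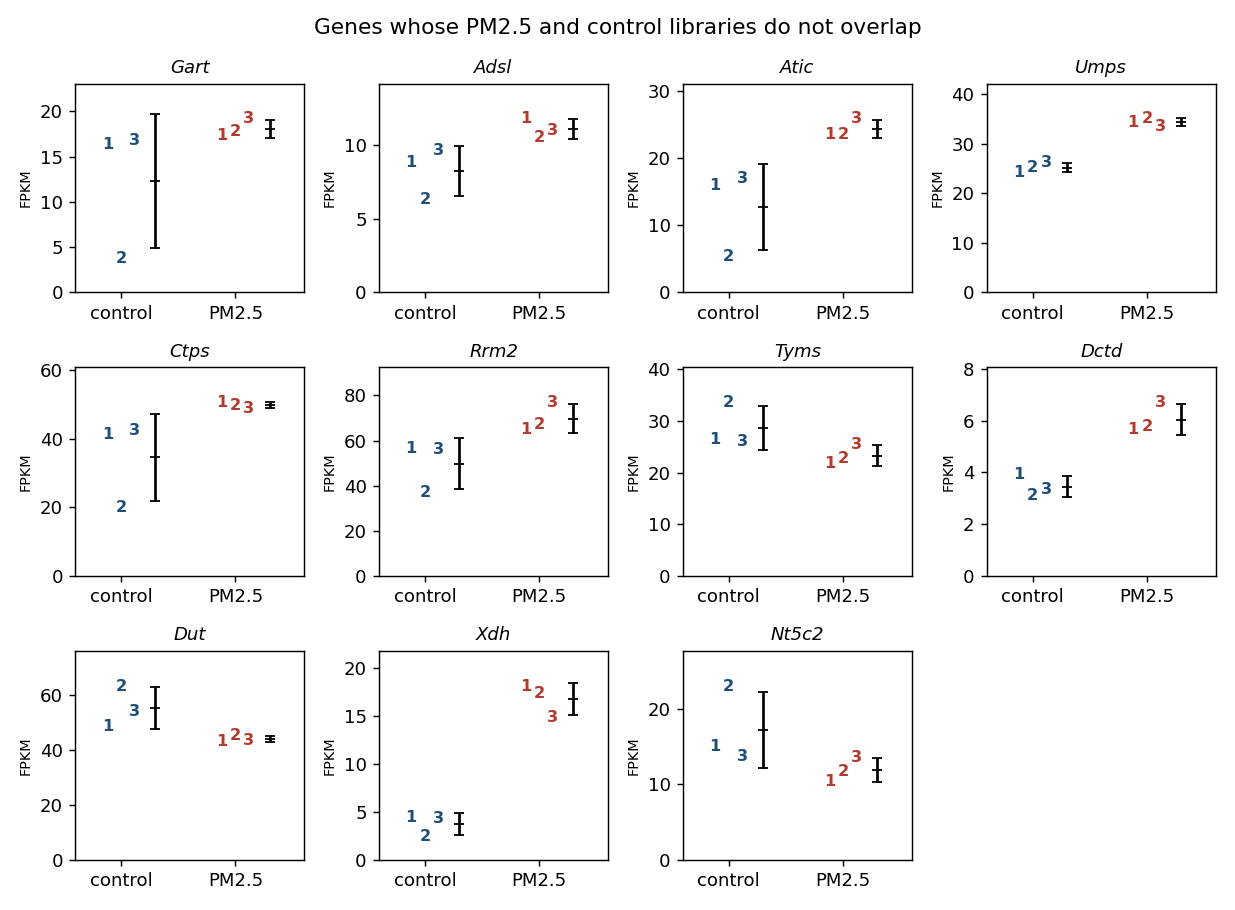
Each panel shows the FPKM of 1 of the 11 members whose PM2.5 and control libraries do not overlap, with the number of each replicate at its value and bars for the mean ± SD (n = 3) on an axis from 0. Control replicate 2 is far below the other control libraries for Gart, Atic and Ctps and above them for Tyms, Dut and Nt5c2, while Umps and Dctd have compact groups.

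In deoxynucleotide production no subunit of ribonucleotide reductase was called in either fit. For each of them control replicate 2 was the lowest library and PM2.5 replicate 3 the highest. Without control replicate 2 their log2 fold changes differed in sign. Rrm2, the small subunit that limits the enzyme in S phase, had 56.3, 36.9 and 56.2 FPKM in control and 64.9, 66.9 and 77.0 in PM2.5 libraries, without overlap. Its log2 fold change was 0.50 (SE 0.25) with all libraries and 0.30 (SE 0.11, adjusted p = 0.294) without control replicate 2. Rrm1, the large subunit, had 50.4, 8.16 and 49.4 FPKM in control and 41.0, 45.5 and 54.6 in PM2.5 libraries. The low value of control replicate 2 set the sign for this gene, since its log2 fold change was 0.73 (SE 0.70) with and -0.09 (SE 0.14) without that library. Rrm2b, the p53-responsive small subunit, had 1.05 FPKM in control replicate 2 and 3.24 to 4.73 elsewhere, and its log2 fold change likewise went from 0.33 to -0.12.

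Dctd and Tyms, which act in sequence on the way to thymidylate, differed in direction. Dctd encodes dCMP deaminase, which makes the dUMP that thymidylate synthase uses. It had 3.90, 3.12 and 3.34 FPKM in control and 5.65, 5.77 and 6.72 in PM2.5 libraries, or 138 to 247 against 344 to 414 reads. The groups were well separated, at 3.45 ± 0.405 and 6.05 ± 0.587 (SD, n = 3), and the log2 fold change was 0.66 (SE 0.17, adjusted p = 0.716) with and 0.61 (SE 0.12, adjusted p = 0.111) without control replicate 2. Tyms, thymidylate synthase, had 26.5, 33.6 and 26.0 FPKM in control and 21.7, 22.7 and 25.5 in PM2.5 libraries, with PM2.5 replicate 3 just under the control range. Dut, the dUTPase that keeps uracil out of DNA, had 48.3, 63.1 and 53.9 FPKM in control and 43.0, 45.3 and 43.3 in PM2.5 libraries. The log2 fold changes without control replicate 2 were -0.17 (95% interval -0.44 to 0.10) for Tyms and -0.21 (-0.46 to 0.03) for Dut, and neither was called.

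Among salvage enzymes, the base and nucleoside routes were mixed. Aprt, which salvages adenine, had 39, 64.4 and 45.3 FPKM in control and 74.2, 75.5 and 49.8 in PM2.5 libraries, so the groups overlapped through control replicate 2 and PM2.5 replicate 3. Its log2 fold change was 0.42 (SE 0.29) with and 0.62 (SE 0.22, adjusted p = 0.271) without control replicate 2. Hprt, which salvages hypoxanthine and guanine, had 107 to 137 FPKM in control and 95, 103 and 159 in PM2.5 libraries, with PM2.5 replicate 3 the highest library of all. Dck, the kinase that salvages deoxycytidine, had 44.2, 3.55 and 45.0 FPKM in control and 33.8, 37.6 and 39.7 in PM2.5 libraries. Control replicate 2 lay far below all other libraries here, and the log2 fold change of 0.85 (SE 0.92) with all libraries was -0.26 (SE 0.11, adjusted p = 0.320) without it. Adk (adenosine kinase), Tk1 (thymidine kinase) and Uck2 (uridine and cytidine kinase) had log2 fold changes of -0.46, 0.17 and 0.10 without control replicate 2, and the interval of each included 0. With all 6 libraries the log2 fold changes were -0.09, -0.03 and 0.05.

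Purine breakdown and interconversion held Xdh and smaller differences in the other genes. Ada, which deaminates adenosine to inosine, had 8.59, 11.7 and 8.23 FPKM in control and 11.0, 11.1 and 11.5 in PM2.5 libraries. Ampd3, an AMP deaminase, had 6.39, 11.9 and 6.66 FPKM in control and 8.93, 8.85 and 9.16 in PM2.5 libraries. For both genes control replicate 2 was the highest of the 6 libraries, and without it the PM2.5 libraries lay above the remaining control libraries, with log2 fold changes of 0.38 (SE 0.09, adjusted p = 0.139) and 0.41 (SE 0.09, adjusted p = 0.124). With all 6 libraries the log2 fold changes were 0.23 for Ada and 0.15 for Ampd3. Nt5c2, the cytosolic nucleotidase that acts on IMP and GMP, had 15.0, 23.0 and 13.7 FPKM in control and 10.3, 11.7 and 13.5 in PM2.5 libraries. These groups did not overlap, with little room between PM2.5 replicate 3 and control replicate 3, and the log2 fold change was -0.48 (SE 0.26) with and -0.26 (SE 0.13) without control replicate 2. Pnp, the phosphorylase between Ada and Xdh, had 12.9, 4.07 and 13.1 FPKM in control and 8.24, 9.01 and 13.4 in PM2.5 libraries. Its log2 fold change was 0.14 with and -0.35 (95% interval -0.88 to 0.19) without control replicate 2. Other genes, mostly Gm49342 on the same strand, share 26.4% of its 31-base sequences. Ampd2, the other AMP deaminase measured, had a log2 fold change of -0.41 with and -0.10 without control replicate 2.

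The remaining members were the nucleoside diphosphate kinases, which pass phosphate between nucleotides, and the genes under the filter. Nme1 had 25.9 to 27.3 FPKM in control and 22.5, 23.4 and 43.5 in PM2.5 libraries, with 1 PM2.5 library far above and 2 below the control range. Its log2 fold change was 0.09 in both fits. Nme2, its neighbour and paralog, had 4, 3 and 7 reads in control and 21, 20 and 3 in PM2.5 libraries, and 48.9% of its exon bases are also annotated to the readthrough gene Gm20390, so its level is uncertain. Nt5e, the ectoenzyme CD73, had 26 to 79 reads, and Upp1, uridine phosphorylase, 11 to 25 reads in a library. None of these 3 could be tested under the filter. Other genes also share annotated 31-base sequences with Prps1 (18.5%, all with Prps1l3), Paics (16.7%), Rrm2b (14.3%), Rrm2 (12.8%), Nme1 (11.8%) and Tyms (11.4%), so part of their reads could have been left uncounted or counted for another gene.

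By role, the median log2 fold change of the 17 de novo enzymes was 0.25 over all 6 libraries and 0.07 without control replicate 2. The 12 tested of 14 salvage and breakdown enzymes had medians of 0.10 and 0.00, and the 6 deoxynucleotide enzymes 0.41 and -0.11. Over all genes tested the medians were 0.02 and -0.01. Control replicate 2 was the lowest of the 6 libraries for 10 of the 17 de novo enzymes and for 4 of the 12 salvage enzymes, and the highest for 3 and 5. Leaving it out changed the sign of the log2 fold change for 10 of the 36 members, 7 of them from positive to negative. The log2 fold change was positive for 69.4% of the members with all 6 libraries and 58.3% without it, beside 51.9% and 48.0% of all genes. How many of all genes changed sign, or had control replicate 2 lowest or highest, was not counted. These counts are therefore not read as a trait of the members or of a role.

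**Figure D3:**
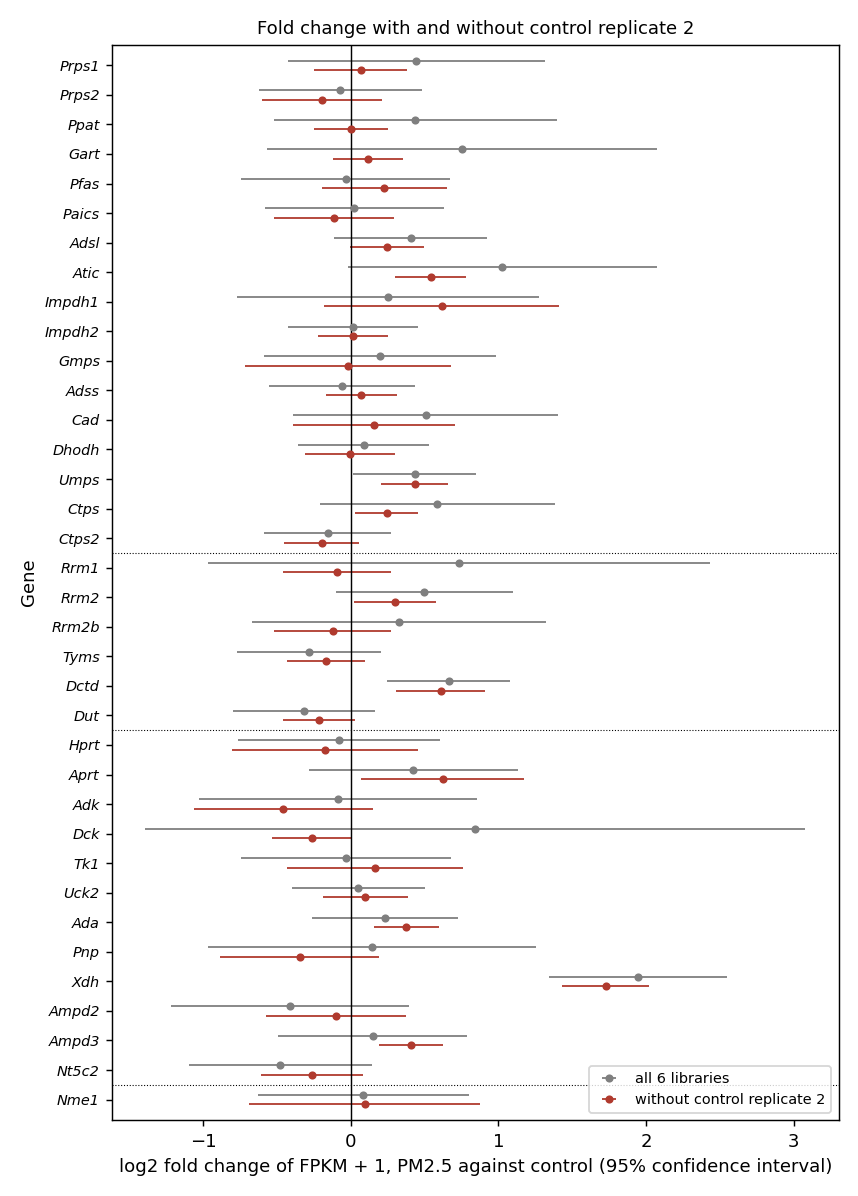
Points give the log2 fold change of FPKM + 1, PM2.5 against control, for the 36 tested members with 95% confidence intervals, grey with all 6 libraries and red without control replicate 2. Intervals are wide in grey and shorter in red, Xdh stands at 1.95 and 1.73, and Rrm1 and Dck are among the 10 members that change sign.

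PM2.5 replicate 3 also bore on many members. PM2.5 replicates 1 and 2 both lay beyond control replicates 1 and 3, on the same side, for 31 of the 36 members (17 above, 14 below). That was 86.1% of the members, beside 77.0% of all genes tested. PM2.5 replicate 3 lay on the same side as replicates 1 and 2 for 17 of these 31 members (54.8%) and beyond the opposite side for 12 (38.7%). Over the 9155 genes with that pattern among all tested, the shares were 48.5% and 40.5%. The opposite cases included Paics, Gmps, Rrm1, Hprt, Pnp and Nme1, which were low in PM2.5 replicates 1 and 2 and high in replicate 3. With control replicate 2 and PM2.5 replicate 3 both left out, 28 of the 36 members (77.8%) were called, 15 higher and 13 lower, beside 48.1% of all genes. By role these were 7 higher and 4 lower in de novo synthesis, 2 and 3 in deoxynucleotide production, and 6 and 5 in salvage and breakdown, with Nme1 lower. That comparison sets 2 libraries against 2, and Xdh had the same direction in it at a log2 fold change of 1.81. The libraries left out were those shown above to resemble their group least. The pairs kept correlated at r = 0.992 (control) and 0.991 (PM2.5). These calls and their counts by role therefore depend on which libraries were left out. With PM2.5 replicate 3 kept and any other of the 5 libraries left out, no gene of the whole table was called in limma, so the members are not told apart there. At an unadjusted p under 0.05 these fits had 4 to 7 members and 639 to 1202 of all genes.

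The other genes around these pathways were taken from a list of 69, of which 45 were tested. None was called with all 6 libraries, and 1 was called without control replicate 2. This was Cmpk2, a mitochondrial kinase of UMP and CMP that is also an interferon-responsive gene, at 8.79, 4.09 and 7.11 FPKM in control and 1.16, 1.83 and 1.41 in PM2.5 libraries. All PM2.5 libraries lay below all control libraries, and the log2 fold change was -1.59 (SE 0.29, adjusted p = 0.324) with all libraries and -1.86 (SE 0.16, adjusted p = 0.0176) without control replicate 2. Without that library 7 of the 45 had an unadjusted p under 0.05 and were higher, beside 8.32% of all genes, and 3 were lower, beside 7.67%. The 7 were Nme6, Ak6, Nme4, Mthfd1, Shmt1, Nt5c and Shmt2, of which Nme6 had the smallest p (log2 fold change 0.63, adjusted p = 0.0623). The groups did not overlap for Nme6, Mthfd1 and Shmt1, whose log2 fold changes with all 6 libraries were 0.59, 0.55 and 0.47. The groups of the others overlapped. Shmt2 had a log2 fold change of 0.39 without control replicate 2 and 0.04 with all 6 libraries, Nme4 had 0.48 and 0.10, and Ak6 had 0.60 and 0.21. For Nt5c the sign changed, from 0.42 without that library to -0.15 with all 6. Taf9, on the same strand, overlaps 56.5% of the exon bases of Ak6, so the level of Ak6 is uncertain. Of 19 genes of S phase and 7 tested of 8 genes for regulators, among them Myc and E2f1, none was called in either fit. At an unadjusted p under 0.05 there were 0 S phase genes and 0 regulators with all libraries, and without control replicate 2 there were 1 S phase gene, lower, and 1 regulator, Myc, higher.

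**Figure D4:**
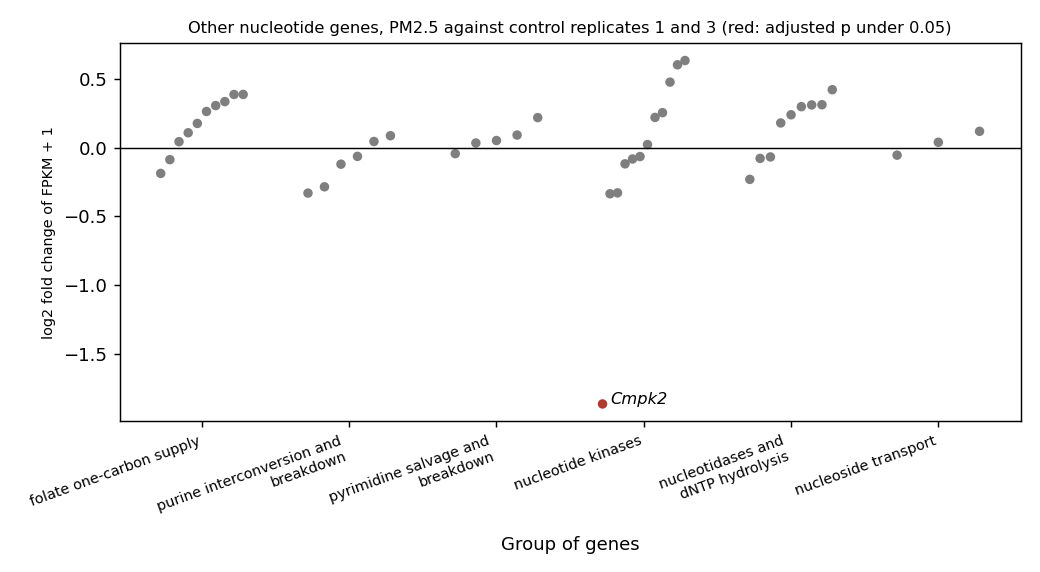
Each point is the log2 fold change of FPKM + 1, PM2.5 against control replicates 1 and 3, of 1 of the 45 other nucleotide genes tested, ordered by value within its group. Cmpk2, the single red point, lies at -1.86, and the other points lie between -0.33 and 0.63.

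The promoters were searched for the E-box CACGTG, the site read by MYC and related factors, because MYC is known to drive genes of nucleotide synthesis. Promoter sequences from RefSeq (250 bases before to 50 after each start, GRCm38.p6) were at hand for 35 of the 39 members, without Pfas, Dhodh, Rrm2b and Xdh. The motif, which reads the same on both strands, occurred in 7 of the 35, beside 8.09% of 27025 genes and 7.15% of 32851 windows. For each motif a gene counted if any of its windows held a match, so genes with more annotated starts had more chances. Ampd3 and Nt5c2 have several windows, and the E-box lay before an alternative start while their other windows held none. The E2F motifs TTTCGCGC, TTTGGCGC, TTTCCCGC and TTTGCCGC, on both strands, occurred in 2 of the 35, beside 2.61% of genes. The aryl hydrocarbon receptor core TNGCGTG, a motif added after the values were seen, occurred on either strand in 4 of the 35, beside 5.84% of genes. There were 8 matches in the 7 genes, since Nme1 has another 29 bases before a second annotated start, which is not shown. For each gene 1 stretch around the E-box, in capitals, is given 5′ to 3′ on the strand of the gene so that the flanking bases can be compared, with the distance of the motif to an annotated start.
Atic, chr1:71557137-71557155, plus strand, 7 bases before the start: ggacctcggggtCACGTGg
Nme1, chr11:93968273-93968302, minus strand, 18 bases before the start: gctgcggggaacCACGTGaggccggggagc
Tyms, chr5:30073669-30073698, minus strand, 61 bases before the start: aaccacttctgtCACGTGggggcggggtct
Ampd3, chr7:110772514-110772543, plus strand, 78 bases before the start: ccagcagtgggtCACGTGtcagctctgtaa
Impdh2, chr9:108560314-108560343, plus strand, 110 bases before the start: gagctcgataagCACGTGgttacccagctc
Nt5c2, chr19:46969745-46969774, minus strand, 194 bases before the start: cactttgcttccCACGTGggtactgattaa
Paics, chr5:76951087-76951116, plus strand, 203 bases before the start: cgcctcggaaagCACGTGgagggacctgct
These genes did not share a direction. Without control replicate 2 the log2 fold changes were 0.54 for Atic and 0.41 for Ampd3, between -0.26 and -0.11 for Nt5c2, Tyms and Paics, and 0.02 and 0.09 for Impdh2 and Nme1. A match of letters is a description of these windows and not a site of binding.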

How the data were processed

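RNA-seq values of 3 control and 3 PM2.5 libraries (100 μg/mL, 48 h) were used, grouped by the titles in the labels. Per the study's methods and the submitters' processing notes, the authors filtered the reads, mapped them with HISAT2 (2.0.5) and computed FPKM from gene length with featureCounts (1.5.0-p3). The authors deposited 1 table of FPKM per library, not pooled. The processing notes name mm9. Gene names, exon lengths and positions were taken here from GENCODE M21 on GRCm38, and the identifiers in the tables were matched to it.

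FPKM multiplied by exon length gave whole reads for 98.0% to 98.1% of values under 50 reads in each library (tolerance 0.02 of a read), which gave the depth. The step between reads showed that the deposited values had been scaled between libraries, with a denominator of 0.800 of the recovered total in control replicate 2 and 1.03 to 1.05 in the others.

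limma 3.58.1 (trend and robust, statmod 1.5.0, R 4.3.3) was fitted on log2(FPKM + 1) over genes that averaged 1 FPKM or more in the libraries of the fit, with Benjamini-Hochberg adjustment over all genes tested. The test for FPKM replaced the count test of the study, and its threshold of 0.05 was kept. Per library values were given for members with an unadjusted p under 0.05 in either fit, with groups that do not overlap, or with the largest fold change of their role. Impdh1, Cad, Hprt and Pnp were added after their values were seen, as were Myc, the 7 other pathway genes named by their unadjusted p and the markers given by library. Of the other lists, those called or with an absolute log2 fold change of at least 1 were named. The members, the gene lists and the choice to leave out control replicate 2 were made with earlier results of these data known. Alternatives were another pseudocount (0.1), no filter, scaling to recovered reads, quantile normalization, voom on recovered reads, limma without trend and robust, a replicate block, an added fold change limit and leaving out each library. Protein sequences and identities between paralogs were not analysed here, and Prtfdc1, a listed gene outside the members, was not matched.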

Additional observations from a re-analysis of the deposited data

How the results depend on the processing

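Single log2 fold changes were recomputed for the members that met the rule for per library values, and not for every tested member. Of 221 such values for the 6-library comparison, 217 kept their direction and their side of the threshold. Of 204 without control replicate 2, 186 did. No member was called in the 6-library main fit, so keeping its side there meant remaining uncalled. With all 6 libraries, 11 genes were called over the whole table. That count was 6 after scaling to recovered reads and 0 with no filter (875 at an unadjusted p under 0.05), with voom (403) and with the replicate block (335), and 0 to 119 when 1 library was left out. Members called ranged from 0 to 1, the 1 being Xdh without control replicate 2. Scaling to recovered reads moved the median of all genes from 0.02 to 0.13 and of all members from 0.17 to 0.30, and voom moved them to 0.17 and 0.32, with 0.64 for deoxynucleotide and 0.25 for salvage enzymes. Leaving out 1 library gave medians of 0.072 to 0.36 for de novo and -0.11 to 0.58 for deoxynucleotide enzymes. Without control replicate 2, 119 genes were called, 54 with no filter and 0 to 5594 with 1 more library left out, and members called ranged from 0 to 28, both highest without PM2.5 replicate 3. Leaving out control replicate 2 changed the sign of the log2 fold change for 10 of the 36 tested members, and the share over all genes was not counted. Among the members recomputed singly, Rrm1 and Dck were the ones that did so. Their log2 fold changes lay within -0.093 to 1.15 and -0.26 to 1.41 over the left-out libraries. For Nme1 the log2 fold change reversed without PM2.5 replicate 3, within -0.21 to 0.25 with and -0.20 to 0.26 without control replicate 2. For changes not tied to a left-out library the cause was not tested.

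Replicate numbers are shared by the groups, but the deviations of same-numbered libraries correlated at -0.285, 0.180 and 0.253, so the numbers were not taken to pair the samples. With the replicate block, 0 members were called with all 6 libraries and 1, Xdh, without control replicate 2. The 36 tested members had 124 reads or more in each library, and the 3 under the filter had 3 to 79. Counting error was not set against the spread between libraries, and at the lowest of these depths it limits how small a difference can be seen.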
